A study of Sus scrofa with 10 samples.

Results

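Genes of the unfolded protein response and of the response to amino acid shortage, 10 in all, were followed in nuclear RNA of sorted minipig (Sus scrofa) cardiomyocytes. They were chosen by gene symbol and made up 10 of the 35670 gene identifiers in the deposited tables. The arm of the kinase PERK and the transcription factor ATF4 had 4 of them (ATF4, DDIT3, TRIB3 and ASNS), and 3 belonged to the arm of the sensor IRE1 and the transcription factor XBP1 (ERN1, XBP1 and DNAJB9). SEL1L and HERPUD1 stood for endoplasmic reticulum-associated degradation (ERAD), and HSPA5 for the chaperones. The study asked, per the series title, how the ERBB4 agonist JK07 bears on atrial remodeling and atrial fibrillation. All 10 libraries were labelled as wild-type heart cardiomyocytes. DOCA + JK07 had 3 libraries (8 to 10), from minipigs given deoxycorticosterone acetate, a steroid that acts on the mineralocorticoid receptor, together with JK07. DOCA had 2 libraries (6 and 7), from minipigs given the steroid alone, and control had 5 (1 to 5), from minipigs given PBS, a buffered saline. Nothing in the sources used here gave the chamber of the heart, the age of the minipigs, a dose or a time. The labels did not say whether the libraries came from separate animals, so the p-values measure the spread between these libraries, which may be technical.

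The endoplasmic reticulum folds secreted and membrane proteins, and in cardiomyocytes it also gives rise to the calcium-storing sarcoplasmic reticulum. When unfolded proteins accumulate there, the chaperone HSPA5 (BiP) leaves the sensors PERK, IRE1 and ATF6. PERK slows translation in general but allows translation of ATF4, which is also made when amino acids run short and then activates genes such as ASNS, TRIB3 and DDIT3. IRE1 splices XBP1 messenger RNA in the cytoplasm, and the spliced form codes for an activator of chaperone and ERAD genes. ERAD carries misfolded proteins out of the reticulum to the proteasome through a membrane complex that holds the ubiquitin ligase SYVN1 (HRD1), its partner SEL1L and the scaffold protein HERPUD1. ATF4 is regulated largely by translation and XBP1 by splicing, and the tables gave 1 value per gene, so neither step was measured here.

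The libraries held 28.15 to 106.38 M estimated counts (M, mega), of which 77.75% to 90.87% lay on unplaced scaffolds. On the placed chromosomes, the DOCA + JK07 libraries held 8.93 to 12.79 M, the DOCA libraries 6.80 and 3.24 M, and the control libraries 8.58 to 13.79 M. The DOCA libraries stood apart. They gave 0 for 30.7% and 34.76% of 15281 expressed genes, against 3.99% to 11.1% in DOCA + JK07 and 3.08% to 10.42% in control. The deposited tables hardly listed values below a coverage of 1, so a 0 in the DOCA libraries can stand for any level under that floor. The cause of the larger share of zeros in DOCA was not tested. Cardiomyocyte markers were detected throughout, with a summed level of 5444 to 9153 CPM (estimated counts scaled to library size with TMM factors) in DOCA + JK07, 4046 to 5966 CPM in DOCA and 4841 to 6031 CPM in control. Of the 14 such markers 12 were matched and tested; TNNC1 (log2 -1.56), for a troponin, and PLN (log2 -3.37), for the calcium pump regulator phospholamban, were lower in DOCA than in control, and PLN was higher in DOCA + JK07 than in DOCA (log2 2.64) by edgeR at an adjusted p under 0.05. TPM are the deposited values, which are scaled to library size and to length.

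The filter on low counts was passed by 9 of the 10 genes. TRIB3, a pseudokinase that is a target of ATF4 and of CHOP, was listed at 0 in all 10 libraries and was not tested. Per length, ATF4 and the chaperone HSPA5 led in control, at 14.9 ± 3.51 and 13.6 ± 3.13 TPM (SD, n = 5). HERPUD1 at 5.97 ± 1.18, XBP1 at 4.65 ± 1.84 and DDIT3 at 4.27 ± 1.43 TPM formed a middle group, below which lay SEL1L at 2.83 ± 0.778 TPM. ERN1 at 1.71 ± 0.235, DNAJB9 at 1.48 ± 0.563 and ASNS at 0.963 ± 0.465 TPM were the lowest of the detected genes. Within the upper pair, the middle group and the lowest group, neighbours in this order differed by less than the larger of their SDs. In DOCA + JK07 the order began with ATF4 at 17.9 ± 1.63 TPM, HSPA5 at 11.6 ± 1.72 TPM and DDIT3 at 9.38 ± 1.67 TPM (SD, n = 3), so DDIT3 stood ahead of HERPUD1 at 5.95 ± 1.84 TPM. In DOCA, ATF4 at 12.0 ± 2.31 TPM and HSPA5 at 10.5 ± 7.03 TPM again led (SD, n = 2), and every other detected gene averaged 2.92 TPM or less.

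**Figure D1:**
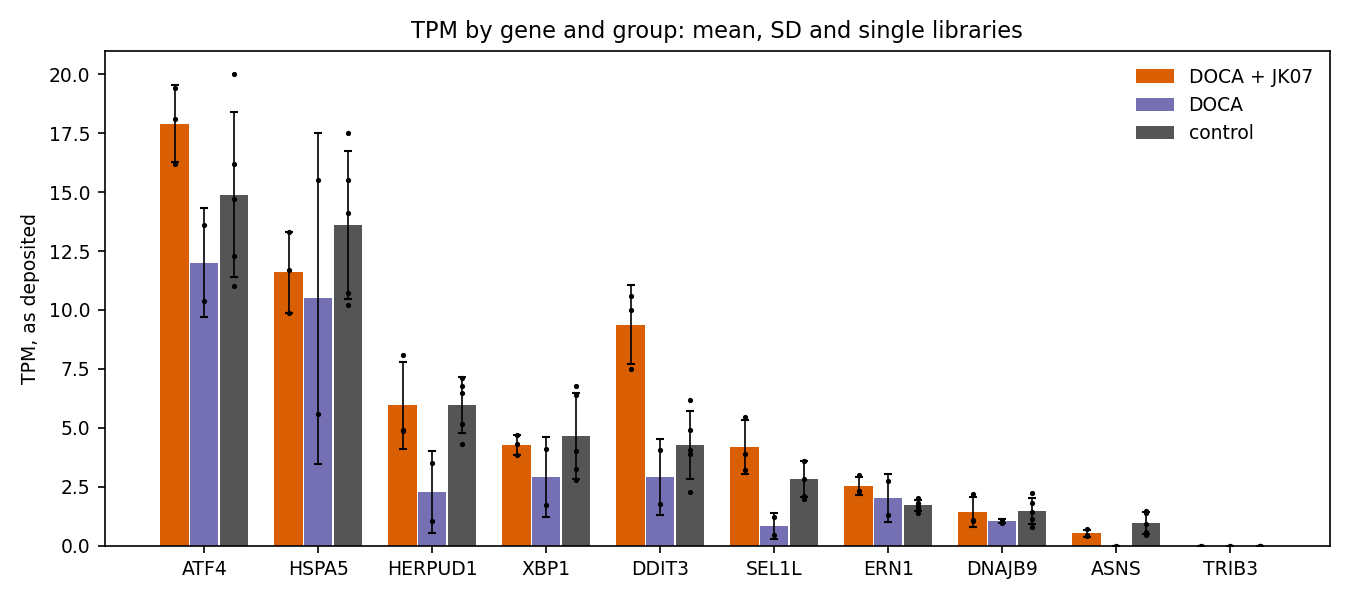
Deposited TPM (vertical axis) of the 10 genes, ordered by their level, in DOCA + JK07 (n = 3), DOCA (n = 2) and control (n = 5); bars are means, whiskers SD and points single libraries. ATF4 and HSPA5 led in every group, DDIT3 averaged 9.38 TPM in DOCA + JK07, 2.92 TPM in DOCA and 4.27 TPM in control, and TRIB3 was at 0 throughout.

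By edgeR, only SEL1L, HERPUD1 and ASNS were called in any comparison. SEL1L and HERPUD1 fell in DOCA relative to control, ASNS was listed at 0 in both DOCA libraries, and SEL1L rose in DOCA + JK07 relative to DOCA. ATF4, DDIT3, ERN1, XBP1, DNAJB9 and HSPA5 did not pass the test in any comparison. By edgeR's quasi-likelihood test over 17251 genes, 3 of the 9 tested genes were lower in DOCA than in control, where 19.7% of all genes tested were lower, and 0 were higher, where 5.73% of all genes were. Of the 9, 2 were called higher in DOCA + JK07 than in DOCA, SEL1L and ASNS, against 14.7% of all genes, and 0 were lower, against 2.25%. The ASNS call is a comparison with 0. In CPM the floor was about as high as its level in DOCA + JK07, and no direction is read from the call. Many of the genes called had 0 in both DOCA libraries, as did 4791 (27.8%) of the 17251 genes tested. Among the 12393 tested genes above 0 in both DOCA and control, 11.1% were lower and 7.85% higher in DOCA, with a median log2 fold change of -0.12, and 2 of the 8 stress genes in that class were lower. Both comparisons share the DOCA libraries. In bulk libraries of this kind, fewer cells of a type and less RNA per cell cannot be told apart.

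**Figure D2:**
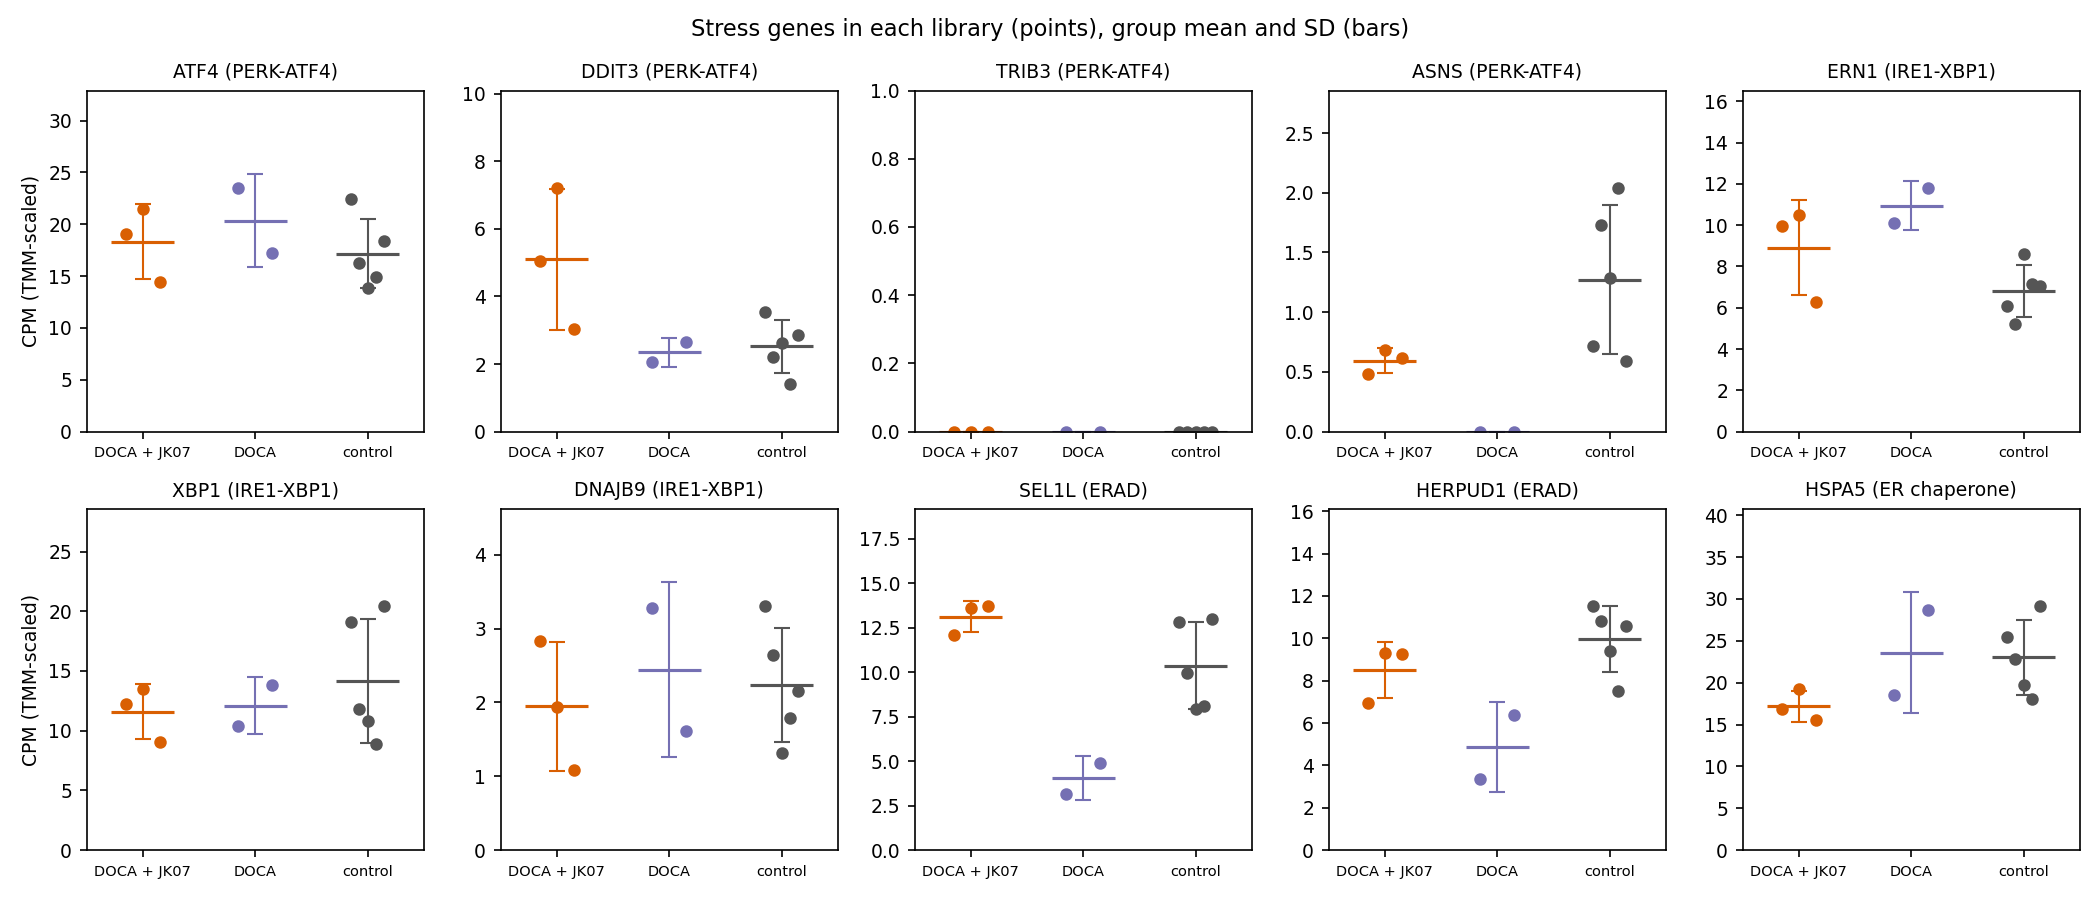
TMM-scaled CPM (vertical axes) of each gene in each library, grouped as DOCA + JK07 (n = 3), DOCA (n = 2) and control (n = 5); points are libraries, horizontal lines means and whiskers SD. Both DOCA libraries lay below all others for SEL1L and HERPUD1, ASNS was listed at 0 in both, and the groups overlapped for ATF4, XBP1, DNAJB9 and HSPA5.

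SEL1L (ENSSSCG00000002414, chr7:104219411-104283195, minus strand, Sscrofa11.1) spans 63.8 kb and codes for the membrane adaptor that stabilises the ubiquitin ligase SYVN1. Its level was 12.1, 13.6 and 13.7 CPM in the DOCA + JK07 libraries and 3.17 and 4.92 CPM in the DOCA libraries. In the control libraries it was 12.8, 9.98, 7.91, 8.13 and 13.0 CPM. Both DOCA libraries were thus below every library of the other groups (27.6% of all genes tested were so placed against control, and 30.3% against DOCA + JK07), while the DOCA + JK07 libraries lay in the upper part of the control range and beyond it. SEL1L fell in DOCA relative to control by 1.36 on the log2 scale (SE 0.28, edgeR adjusted p = 0.00724). In DOCA + JK07 it rose relative to DOCA by 1.70 (SE 0.30, edgeR adjusted p = 0.00345). The estimate for DOCA + JK07 against control was 0.34 (SE 0.23, edgeR adjusted p = 1.00). The fall held without DOCA library 6 (log2 -1.08, edgeR adjusted p = 0.0484) and without DOCA library 7 (log2 -1.71, edgeR adjusted p = 0.00619), and the rise likewise without either (edgeR adjusted p = 0.0201 and 0.00355). With quality weights per library in limma voom, neither passed (adjusted p = 0.164 and 0.147). The deposited coverage of SEL1L was 4.87, 5.24 and 3.48 in DOCA + JK07, 0.909 and 1.08 in DOCA and 3.87 to 5.83 in control, so both DOCA values lay at the floor near a coverage of 1 under which few values are listed. The part of that floor in the SEL1L values of DOCA, and in the ratios made from them, was not tested.

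Long genes were called lower more often than short ones in these DOCA libraries. Of the 4362 genes tested that span 50 kb or more, 28.6% were lower in DOCA than in control, against 13.5% of the 6834 genes under 10 kb. In DOCA + JK07 against DOCA, 22.9% of the long genes and 8.76% of the short ones were higher. For genes of 10 to 50 kb these shares were 20.4% and 15.6%. The fitted median log2 fold changes differed less between the classes. In DOCA against control they were -0.69 under 10 kb, -0.50 at 10 to 50 kb and -0.76 at 50 kb or more. For DOCA + JK07 against DOCA they were 0.53, 0.45 and 0.70. The part of gene length in the SEL1L result was not tested.

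HERPUD1 (ENSSSCG00000040663, chr6:18901297-18913424, plus strand, 12.1 kb) codes for a membrane protein with a ubiquitin-like domain that organises the SYVN1 complex. It stood at 6.96, 9.30 and 9.26 CPM in DOCA + JK07 and at 3.38 and 6.39 CPM in DOCA. The control libraries held 11.5, 10.8, 9.38, 7.53 and 10.6 CPM. Here too both DOCA libraries were the lowest, although library 7 came close to the lowest DOCA + JK07 library. HERPUD1 fell in DOCA relative to control by 1.03 on the log2 scale (SE 0.29, edgeR adjusted p = 0.0304). In DOCA + JK07 against DOCA the estimate was 0.80 (SE 0.30, edgeR adjusted p = 0.109), and it did not pass although the ranges did not overlap, again as for 30.3% of all genes. The DOCA call rested on single libraries: it was lost without library 6 (log2 -0.64, edgeR adjusted p = 0.139) and also without 1, 2, 3, 5 or 10, and it was lost under upper quartile scaling (log2 -0.77, edgeR adjusted p = 0.0967). Without DOCA library 7, the log2 estimate for DOCA + JK07 against DOCA was 1.34, against 0.80 with all libraries. With limma on log2(TPM + 1) and on log2(TPM + 0.1), HERPUD1 passed in that comparison. The result there thus depends on the unit and also on library 7.

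HSPA5 (ENSSSCG00000005601, chr1:265930045-265934894, minus strand, 4.85 kb) codes for BiP, the chaperone that binds unfolded proteins and holds the sensors inactive. Its level was 16.8, 19.2 and 15.5 CPM in DOCA + JK07 and 18.5 and 28.7 CPM in DOCA. The control libraries held 25.5, 22.8, 19.7, 18.0 and 29.1 CPM. All groups overlapped, and the DOCA libraries were at opposite ends of the control range. No comparison passed: the log2 estimates were -0.46 (SE 0.26, edgeR adjusted p = 0.263) in DOCA + JK07 against DOCA and 0.04 (SE 0.24, edgeR adjusted p = 0.924) in DOCA against control. In DOCA + JK07 against control the estimate was -0.42 (SE 0.21, edgeR adjusted p = 1.00).

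SEL1L and HERPUD1 were thus called lower in DOCA and HSPA5 was not, a contrast that was itself not tested. Ratios within a library need no scaling between libraries. These ratios were chosen after the values were seen, with SEL1L and HERPUD1 already called lower in DOCA, so they add no support. They are given as a description, with no test. For each 100 estimated counts of HSPA5 there were 71.9, 70.8 and 88.7 counts of SEL1L in DOCA + JK07, 17.1 in each DOCA library, and 40.2 to 50.3 in control. For HERPUD1 the ratio to HSPA5 was 41.3, 48.5 and 59.9 in DOCA + JK07, 18.2 and 22.2 in DOCA, and 36.4 to 47.6 in control. Set against SYVN1, the ligase with which SEL1L works, SEL1L stood at 221, 140 and 209 counts for each 100 in DOCA + JK07, at 34.3 and 29.7 in DOCA, and at 115 to 252 in control. Each of the 3 ratios was lower in both DOCA libraries than in any other library. The same held for XBP1 against ERN1, although neither gene was called. For each 100 counts of ERN1 there were 103 and 117 of XBP1 in DOCA, 122 to 144 in DOCA + JK07 and 125 to 315 in control. The ratio of DNAJB9 to XBP1 overlapped between the groups. SYVN1 itself averaged 7.24 ± 2.18 CPM in DOCA + JK07, 12.9 ± 5.16 CPM in DOCA and 6.69 ± 1.72 CPM in control (SD), and the log2 estimate for DOCA against control was 0.95 (SE 0.34, edgeR adjusted p = 0.0712), which did not pass.

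**Figure D3:**
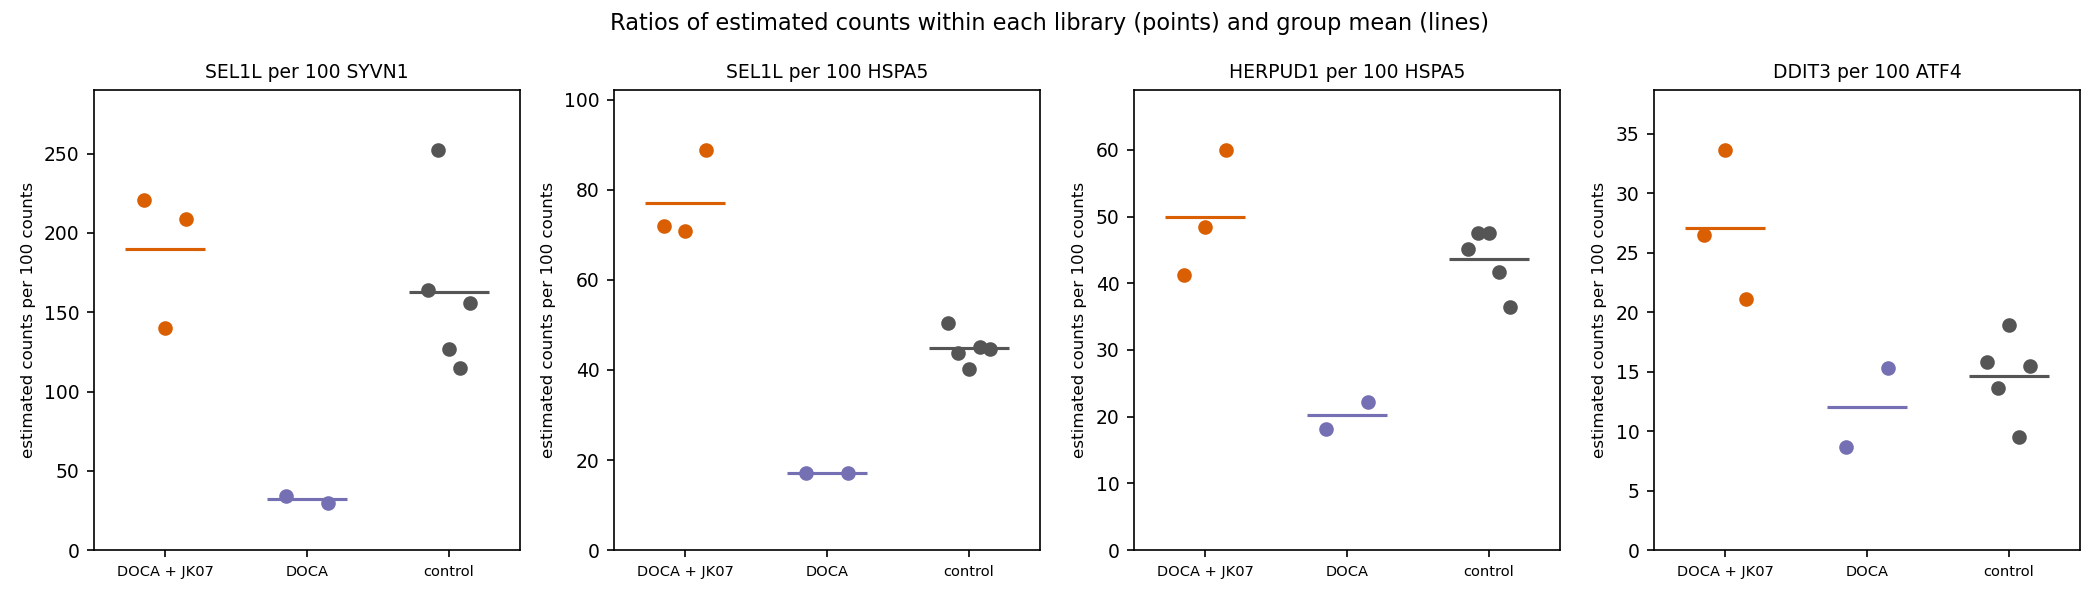
Estimated counts of one gene for each 100 counts of another in the same library (vertical axes), in DOCA + JK07, DOCA and control; points are libraries and lines group means. SEL1L against SYVN1 or HSPA5 and HERPUD1 against HSPA5 were lowest in the DOCA libraries, and DDIT3 against ATF4 was highest in the DOCA + JK07 libraries, at 21.1 to 33.6.

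ATF4 (ENSSSCG00000059058, chr5:8742967-8745368, minus strand) is a compact gene of 2.40 kb for the transcription factor that carries the PERK and amino acid signals. It measured 19.1, 21.5 and 14.4 CPM in DOCA + JK07 and 23.5 and 17.2 CPM in DOCA. Control libraries ranged from 13.9 to 22.4 CPM with a median of 16.3 CPM. The groups overlapped throughout. The log2 estimates were -0.15 (SE 0.26, edgeR adjusted p = 0.746) in DOCA + JK07 against DOCA and 0.25 (SE 0.24, edgeR adjusted p = 0.470) in DOCA against control, and in DOCA + JK07 against control 0.09 (SE 0.21, edgeR adjusted p = 1.00). On the TPM scale the DOCA estimate had the other sign, at -0.27 on log2(TPM + 1), again not past the threshold (limma adjusted p = 0.526).

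DDIT3 (ENSSSCG00000050998, chr5:22785445-22789829, minus strand, 4.38 kb) codes for CHOP, a transcription factor made downstream of ATF4 and known for promoting cell death under lasting stress. Its level was 5.05, 7.21 and 3.04 CPM in DOCA + JK07 and 2.05 and 2.64 CPM in DOCA. The control libraries held 3.55, 2.21, 2.62, 1.42 and 2.85 CPM. Every DOCA + JK07 library lay above both DOCA libraries, as for 30.3% of all genes tested, and library 10 overlapped the highest control. The log2 estimate was 1.12 (SE 0.46, edgeR adjusted p = 0.139) in DOCA + JK07 against DOCA and 1.01 (SE 0.35, unadjusted p = 0.0173, edgeR adjusted p = 1.00) in DOCA + JK07 against control, so neither passed. In DOCA against control it was -0.11 (SE 0.41, edgeR adjusted p = 0.872).

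In TPM, DDIT3 was 10.0, 10.6 and 7.48 in DOCA + JK07, 1.77 and 4.07 in DOCA and 6.18, 3.91, 4.07, 2.29 and 4.91 in control. On that scale the DOCA + JK07 libraries exceeded every control library, as 5.00% of all genes tested did. They exceeded both DOCA libraries in TPM too, as 43.5% of all genes did. With limma on log2(TPM + 1), DOCA + JK07 against DOCA passed (difference 1.46, adjusted p = 0.00908), so this call depends on the unit. The count of DDIT3 for each 100 counts of ATF4 was 26.5, 33.6 and 21.1 in DOCA + JK07, 8.71 and 15.3 in DOCA, and 9.50 to 18.9 in control. MARS1, for methionyl-tRNA synthetase, overlaps DDIT3 on the plus strand, and reads of the 2 genes may not be fully separated. MARS1 averaged 4.99 ± 0.775 CPM in DOCA + JK07, 3.74 ± 0.622 CPM in DOCA and 4.28 ± 0.609 CPM in control (SD), and it did not pass in any comparison (log2 0.42, SE 0.25, edgeR adjusted p = 0.292 for DOCA + JK07 against DOCA).

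ASNS (ENSSSCG00000015340, chr9:77318213-77343035, minus strand, 24.8 kb) codes for asparagine synthetase, which makes asparagine from aspartate and glutamine. It stood at 0.480, 0.687 and 0.617 CPM in DOCA + JK07 and at 0 in both DOCA libraries. In control it was 0.715, 1.73, 1.29, 2.04 and 0.594 CPM. The DOCA + JK07 libraries lay at or under the bottom of the control range. The edgeR test called ASNS lower in DOCA than in control (adjusted p = 7.72e-04) and higher in DOCA + JK07 than in DOCA (adjusted p = 0.00169), with no fold given against a group at 0. The second call was lost with limma on log2(TPM + 1) (difference 0.61, adjusted p = 0.0729), and both were lost with quality weights in limma voom (adjusted p = 0.275 for DOCA against control and 0.423 for DOCA + JK07 against DOCA). DOCA + JK07 against control gave a log2 estimate of -1.10 (SE 0.59, edgeR adjusted p = 1.00). The floor limits this gene. A coverage of 1 corresponded to 0.668 CPM of ASNS in DOCA library 6 and to 0.873 CPM in library 7. A level like that in the DOCA + JK07 libraries, or in control libraries 1 and 5, would therefore lie near or under the floor of the DOCA libraries. The other 3 control libraries, at 1.29 to 2.04 CPM, lay above the floor of both DOCA libraries. In TPM the floor was 0.261 in DOCA library 6 and 0.612 in library 7. The DOCA + JK07 libraries, at 0.428, 0.458 and 0.690 TPM, all lay above the first value, and only library 10 lay above the second. Where ASNS lay against the floor thus depends on the unit. The size of a difference between DOCA + JK07 and DOCA was not measurable, and no direction is read from it.

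ERN1 (ENSSSCG00000039909, chr12:14881923-14963284, plus strand, 81.4 kb) codes for IRE1, the sensor that is both a kinase and the nuclease that cuts XBP1 messenger RNA. Its level was 9.96, 10.5 and 6.27 CPM in DOCA + JK07 and 10.1 and 11.8 CPM in DOCA. In control it was 6.07, 5.22, 8.61, 7.14 and 7.04 CPM. Both DOCA libraries lay above every control library, as 10.2% of all genes tested did in that direction, and the DOCA + JK07 libraries spanned both groups. The log2 estimate for DOCA against control was 0.68 (SE 0.25, edgeR adjusted p = 0.0782), which did not pass; it did pass with DESeq2 (0.76, adjusted p = 0.0107) and under upper quartile scaling (0.93, edgeR adjusted p = 0.0233). It also passed without DOCA + JK07 library 10 (0.74, edgeR adjusted p = 0.0339). In TPM the groups overlapped, at 2.98, 2.32 and 2.32 in DOCA + JK07, 1.30 and 2.74 in DOCA and 1.39 to 2.01 in control. The remaining estimates were -0.30 (SE 0.28, edgeR adjusted p = 0.499) in DOCA + JK07 against DOCA and 0.39 (SE 0.22, edgeR adjusted p = 1.00) in DOCA + JK07 against control.

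XBP1 (ENSSSCG00000030996, chr14:46008377-46016526, minus strand, 8.15 kb) is the transcription factor activated by IRE1. Its level was 12.2, 13.5 and 9.06 CPM in DOCA + JK07, 10.4 and 13.8 CPM in DOCA and 19.1, 11.8, 10.8, 8.90 and 20.4 CPM in control. Control libraries 1 and 5 were the highest of all and control library 4 the lowest, and the groups overlapped. The log2 estimates were -0.06 (SE 0.38, edgeR adjusted p = 0.953) in DOCA + JK07 against DOCA and -0.23 (SE 0.35, edgeR adjusted p = 0.659) in DOCA against control. DNAJB9 (ENSSSCG00000016653, chr18:36579453-36584130, minus strand, 4.68 kb) codes for the cochaperone ERdj4, a target of spliced XBP1 that restrains IRE1. It ranged from 1.08 to 2.83 CPM in DOCA + JK07, from 1.61 to 3.28 CPM in DOCA and from 1.31 to 3.30 CPM in control, and the groups overlapped. Its log2 estimates, -0.32 (SE 0.53, edgeR adjusted p = 0.733) in DOCA + JK07 against DOCA and 0.13 (SE 0.48, edgeR adjusted p = 0.873) in DOCA against control, turned to the opposite sign without library 6 (0.28 and -0.48).

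**Figure D4:**
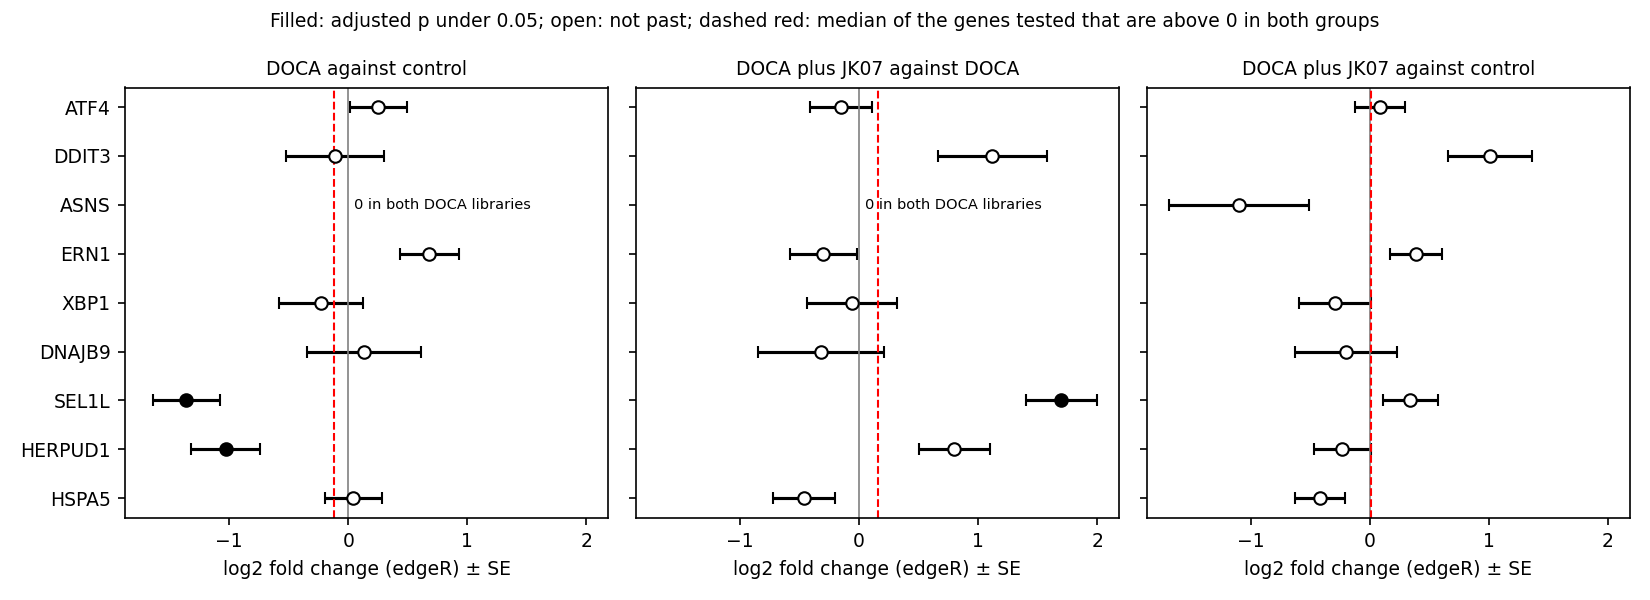
Log2 fold changes from edgeR with SE (horizontal axes) of the 9 tested genes in the 3 comparisons; filled points have an adjusted p under 0.05, and the dashed line is the median of the genes tested that are above 0 in both groups. SEL1L stood at -1.36 in DOCA against control and at 1.70 in DOCA + JK07 against DOCA, HERPUD1 at -1.03 in DOCA against control, and no gene passed in DOCA + JK07 against control.

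In DOCA + JK07 against control, none of the 9 genes passed by edgeR, nor did any of the 17251 genes (0% called). At an unadjusted p under 0.05, 803 genes (4.65%) stood out there, DDIT3 among them, and DESeq2 called 113 genes, with no stress gene among them. The largest estimates in size were -1.10 for ASNS and 1.01 for DDIT3, both already given. For SEL1L, ERN1 and ATF4 the estimates were positive, and for HERPUD1 (log2 -0.23, SE 0.24), XBP1 (-0.29, SE 0.30), DNAJB9 (-0.20, SE 0.43) and HSPA5 they were negative, each with an edgeR adjusted p of 1.00.

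Other genes of the same pathways were read from 6 lists of 156 genes, of which 150 were matched and 145 tested. In DOCA against control, 12 of the 145 were higher and 28 lower, and in DOCA + JK07 against DOCA 17 were higher and 10 lower. These were 8.28% higher and 19.3% lower in DOCA against control, where 5.73% of all genes tested were higher and 19.7% lower. The shares for DOCA + JK07 against DOCA were 11.7% higher and 6.90% lower, against 14.7% and 2.25% of all genes. The share of the lists that was lower in DOCA than in control, and the share that was higher in DOCA + JK07 than in DOCA, were thus near or under those of all genes. The shares in the opposite directions, 8.28% and 6.90%, were above those of all genes. Under upper quartile scaling these counts became 16 higher and 19 lower in DOCA against control, and 12 higher and 13 lower in DOCA + JK07 against DOCA. With limma on log2(TPM + 1), of 139 genes tested, 2 were higher and 52 lower in DOCA against control, and 51 higher and 0 lower in DOCA + JK07 against DOCA; limma voom with quality weights called 1 gene lower in DOCA against control and none in DOCA + JK07 against DOCA. Without library 6 there were 6 higher and 35 lower in DOCA against control, and 30 higher and 6 lower in DOCA + JK07 against DOCA. In DOCA against control, 7 were higher without library 3 and 17 lower without library 1. For DOCA + JK07 against DOCA, 6 were lower without library 3, 2 without library 8 and 4 without library 10. No list had a call in DOCA + JK07 against control. Median log2 fold changes of lists are given with genes at 0 in a whole group set to the fold at a coverage of 1; computed in that way, the median over all genes tested was 0.00 in both comparisons with DOCA, where the fitted medians were -0.63 for DOCA against control and 0.55 for DOCA + JK07 against DOCA.

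In the PERK and ATF4 list, 1 of 25 genes was higher and 2 were lower in DOCA than in control (median -0.01), with 0 to 1 higher and 1 to 4 lower when 1 library was left out, the most without library 6 or 7. The kinase gene EIF2AK3, for PERK itself, averaged 10.4 ± 1.63 CPM in DOCA + JK07, 11.1 ± 7.05 CPM in DOCA and 10.4 ± 2.93 CPM in control (SD), with a log2 estimate of 0.08 (SE 0.37, edgeR adjusted p = 0.894) in DOCA against control. EIF2AK2, for the kinase PKR that responds to double-stranded RNA, was listed at 0 in both DOCA libraries, against 5.95 ± 1.64 CPM in DOCA + JK07 and 9.82 ± 2.61 CPM in control (edgeR adjusted p = 1.93e-05 for DOCA against control). CEBPB, a transcription factor that pairs with ATF4 and CHOP, rose in DOCA relative to control by 0.89 (SE 0.28, edgeR adjusted p = 0.0462) and fell in DOCA + JK07 relative to DOCA by 1.20 (SE 0.31, edgeR adjusted p = 0.0280). Its first call was lost when any one of libraries 2 to 7 was left out, with an edgeR adjusted p of up to 0.224, and the second without 7, 8 or 10. VLDLR, a lipoprotein receptor and ATF4 target, fell in DOCA by 0.68 (SE 0.21, edgeR adjusted p = 0.0396), a call that was lost when any one of 1 to 5, 7, 8 and 10 was left out, and rose in DOCA + JK07 relative to DOCA by 0.89 (SE 0.22, edgeR adjusted p = 0.0223), which was lost without 7, 8 or 10.

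Among 20 genes of amino acid supply, 3 were higher and 3 lower in DOCA than in control (median 0.00), and the 3 lower ones were listed at 0 in DOCA. Without library 6, 0 were higher and 2 lower, and without any one of libraries 1 to 4, 8 and 9, 1 was lower. Those higher included 2 transporters. SLC7A1, which imports cationic amino acids, rose in DOCA by 2.22 (SE 0.41, edgeR adjusted p = 0.00360) and fell in DOCA + JK07 relative to DOCA by 2.05 (SE 0.48, edgeR adjusted p = 0.0155), the second call being lost without 6 or 8. DOCA library 6 held 27.2 CPM of it and library 7 held 7.63 CPM, against 3.72 to 4.99 CPM in DOCA + JK07 and 2.71 to 5.26 CPM in control. Without library 6 the rise was 1.03 (edgeR adjusted p = 0.0544). SLC1A5, a glutamine transporter, followed with 1.38 (SE 0.36, edgeR adjusted p = 0.0210) in DOCA against control and 0.83 without library 6, where it did not pass. In DOCA + JK07 relative to DOCA it fell by 1.48 (SE 0.41, edgeR adjusted p = 0.0352), a call lost without 3, 6, 8 or 10. SLC3A2, the shared heavy chain of several amino acid exchangers, averaged 4.67 ± 1.13 CPM in DOCA + JK07 and 8.71 ± 1.39 CPM in DOCA (SD) and fell in DOCA + JK07 relative to DOCA by 0.90 (SE 0.23, edgeR adjusted p = 0.0251), a call lost without 6 or 8. CTH, which makes cysteine, was listed at 0 in both DOCA libraries, against 2.40 ± 1.37 CPM in DOCA + JK07 and 2.16 ± 0.650 CPM in control (edgeR adjusted p = 2.83e-04 for DOCA against control). MTHFD2, a mitochondrial folate enzyme, was also at 0 in both, against 0.702 ± 0.610 CPM in DOCA + JK07 and 1.28 ± 0.429 CPM in control (edgeR adjusted p = 0.0352), and that call was lost when any one of libraries 1 to 9 was left out.

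In the list of tRNA synthetases, 1 of 13 genes was higher and 1 lower in DOCA than in control (median -0.23). Without library 6, 5 were lower there, and in DOCA + JK07 against DOCA 4 were higher, against 1 with all libraries. CARS1, which loads cysteine, rose in DOCA by 1.93 (SE 0.36, edgeR adjusted p = 0.00402), again mostly through library 6 at 51.1 CPM; library 7 held 15.0 CPM, DOCA + JK07 libraries 12.0 to 15.6 CPM and control libraries 7.31 to 10.8 CPM. Without library 6 the estimate was 0.79 and still passed (edgeR adjusted p = 0.0414). XPOT, the carrier that exports tRNA from the nucleus and no synthetase itself, fell in DOCA by 1.47 (SE 0.16, edgeR adjusted p = 1.55e-04) and rose in DOCA + JK07 relative to DOCA by 1.35 (SE 0.17, edgeR adjusted p = 3.62e-04), and both calls held without any one library.

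In the list of IRE1 signalling and of protein entry into the reticulum, the longest of the 6, 11 of 34 genes were lower and 1 higher in DOCA than in control (median -0.56). Between DOCA + JK07 and DOCA, 6 were higher and 1 lower in DOCA + JK07 (median 0.47). The 11 lower made up 32.4%, against 19.7% of all genes tested, and the 6 higher 17.6%, against 14.7%. Under upper quartile scaling, and also without library 1, 6 of the 34 were lower in DOCA than in control, and without library 6, 11 were higher in DOCA + JK07 than in DOCA. Listed at 0 in both DOCA libraries were 4 of the 11: the signal peptidase genes SEC11A and SEC11C, SEC61B for a subunit of the translocation channel, and DNAJB11 for a cochaperone of BiP. These were 4 of the 34 tested, where 27.8% of all genes tested were at 0 in both DOCA libraries. SEC11A averaged 4.54 ± 0.643 CPM in DOCA + JK07 and 4.13 ± 0.734 CPM in control (SD; edgeR adjusted p = 1.09e-05 for DOCA against control). DNAJB11 averaged 1.34 ± 0.133 CPM in DOCA + JK07 and 1.51 ± 0.335 CPM in control (SD; edgeR adjusted p = 6.86e-05 for DOCA against control). In TPM, a coverage of 1 corresponded to 0.261 in DOCA library 6 and 0.612 in library 7. DNAJB11, at 0.367 to 0.602 TPM in control, lay under the second value in every control library. SEC61B at 0.509 to 0.962, SEC11C at 0.476 to 1.07 and MTHFD2 at 0.263 to 0.653 TPM in control lay partly under it. The part of this floor in the calls of these genes was not tested.

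Of the chaperones and the ATF6 arm, 3 of 23 genes were higher and 4 lower in DOCA than in control (median -0.16). This split turned on the setting, with 6 higher and 3 lower under upper quartile scaling, and 0 higher and 7 lower of 22 with limma on log2(TPM + 1). It was 0 higher and 5 lower without library 7, 0 higher and 3 lower without library 3, and 5 higher and 2 lower without library 5; 2 were lower without library 1 or 2. ATF6, the sensor that is cut in the Golgi, averaged 10.9 ± 0.409 CPM in DOCA + JK07, 5.74 ± 4.29 CPM in DOCA and 14.7 ± 1.24 CPM in control (SD) and fell in DOCA by 1.35 (SE 0.38, edgeR adjusted p = 0.0300). The DOCA libraries differed, at 8.78 CPM in library 6 and 2.71 CPM in library 7. Library 7, at 0.646 TPM, lay near its floor of 0.612 TPM. DOCA + JK07 against DOCA did not pass (log2 0.91, SE 0.39, edgeR adjusted p = 0.155). UGGT1, which senses misfolded glycoproteins, fell in DOCA by 1.39 (SE 0.21, edgeR adjusted p = 9.14e-04) and rose in DOCA + JK07 relative to DOCA by 1.19 (SE 0.22, edgeR adjusted p = 0.00370). HYOU1, a nucleotide exchange factor of BiP, averaged 7.24 ± 1.49 CPM in DOCA + JK07, 15.3 ± 0.185 CPM in DOCA and 7.75 ± 2.23 CPM in control (SD). It rose in DOCA by 0.98 (SE 0.27, edgeR adjusted p = 0.0268), a call lost without 3, 6 or 7, and fell in DOCA + JK07 relative to DOCA by 1.08 (SE 0.30, edgeR adjusted p = 0.0364), a call lost without 3, 6, 7, 8 or 10. CRELD2, a stress-induced secreted factor of the reticulum, rose in DOCA by 1.58 (SE 0.42, edgeR adjusted p = 0.0235), a call lost without 3 or 7, and fell in DOCA + JK07 relative to DOCA by 1.82 (SE 0.48, edgeR adjusted p = 0.0285), a call lost without 7, 8 or 10. DNAJC10, a reductase that works in ERAD, was listed at 0 in both DOCA libraries, against 4.55 ± 0.881 CPM in DOCA + JK07 and 7.39 ± 1.28 CPM in control (edgeR adjusted p = 9.83e-06 for DOCA against control).

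Besides SEL1L and HERPUD1, 3 of 30 ERAD genes were higher and 7 lower in DOCA than in control (median -0.39), and 5 were higher and 2 lower in DOCA + JK07 than in DOCA (median 0.26); upper quartile scaling made these 4 higher and 5 lower, and 2 higher and 3 lower. The count of those higher in DOCA + JK07 than in DOCA was 3 without library 1, 3, 8 or 10 and 2 without library 4 or 9, and that of those lower was 1 without any one of libraries 3, 4, 5, 8, 9 and 10. The channel-forming DERL1 fell in DOCA by 1.57 (SE 0.27, edgeR adjusted p = 0.00219), with 8.22 ± 1.35 CPM in DOCA + JK07, 4.29 ± 0.198 CPM in DOCA and 12.7 ± 2.94 CPM in control (SD). FAF2, which recruits the extraction ATPase VCP, fell in DOCA by 1.39 (SE 0.28, edgeR adjusted p = 0.00541) and rose in DOCA + JK07 relative to DOCA by 1.53 (SE 0.29, edgeR adjusted p = 0.00516). DERL2, a relative of DERL1, averaged 2.12 ± 0.701 CPM in DOCA + JK07 and 0.764 ± 0.103 CPM in DOCA (SD) and rose in DOCA + JK07 relative to DOCA by 1.47 (SE 0.37, edgeR adjusted p = 0.0245), a call lost without 4, 6, 8 or 9. Its values of 0.296 and 0.627 TPM in DOCA libraries 6 and 7 lay at the floor, where a coverage of 1 was 0.261 and 0.612 TPM. The part of that floor in the DERL2 call was not tested. The related conjugating enzymes UBE2J1 and UBE2J2 differed in direction. UBE2J1 was listed at 0 in both DOCA libraries, against 3.40 ± 0.539 CPM in DOCA + JK07 and 3.74 ± 0.623 CPM in control (edgeR adjusted p = 1.22e-05 for DOCA against control). UBE2J2 rose in DOCA by 1.34 (SE 0.25, edgeR adjusted p = 0.00423), with 2.07 ± 0.348 CPM in DOCA + JK07, 5.03 ± 0.126 CPM in DOCA and 1.99 ± 0.402 CPM in control (SD), and fell in DOCA + JK07 relative to DOCA by 1.28 (SE 0.29, edgeR adjusted p = 0.0133). The calls of DERL1, FAF2, UBE2J1 and UBE2J2 in DOCA against control held without any one library.

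**Figure D5:**
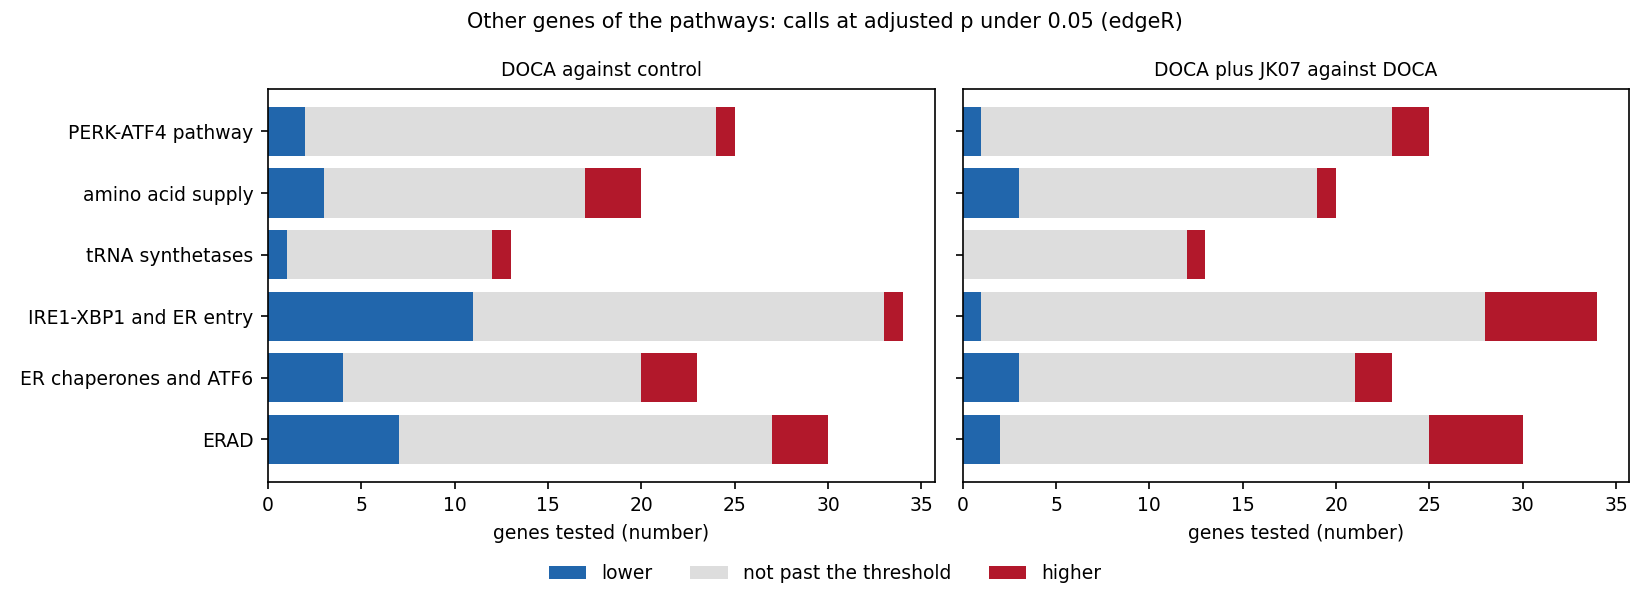
Number of genes tested (horizontal axes) in 6 lists of other pathway genes, split into those lower, not past the threshold and higher at an edgeR adjusted p under 0.05, in DOCA against control and in DOCA + JK07 against DOCA. The IRE1 and ER entry list had 11 of 34 genes lower in DOCA than in control, and the PERK and ATF4 list 2 of 25.

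Markers of other cell types moved with the DOCA group in part. The summed level of 4 adipocyte markers was 16.7 to 38.0 CPM in DOCA + JK07, 3.95 to 4.20 CPM in DOCA and 11.7 to 24.2 CPM in control. ADIPOQ was at 0 everywhere, and PLIN1 was at 0 in every DOCA + JK07 library but not in every DOCA library. Only LPL among them was called by edgeR at an adjusted p under 0.05. It was lower in DOCA than in control (log2 -2.52) and higher in DOCA + JK07 than in DOCA (log2 3.14). Lymphocyte markers summed to 0.951 to 2.45 CPM in DOCA + JK07, to 0 in DOCA and to 1.11 to 1.93 CPM in control, with MS4A1 and CD79A at 0 everywhere. Of 6 Schwann cell and neuron markers 5 were matched, and they summed to 5.42 to 8.95 CPM in DOCA + JK07, to 0 in DOCA and to 2.27 to 8.06 CPM in control. The ranges of the 9 endothelial, 8 fibroblast, 7 mural and 8 macrophage markers overlapped between the groups. Of single genes, the macrophage marker LYVE1 was listed at 0 in DOCA and called lower there than in control, and the mural marker RGS5 was lower in DOCA than in control (log2 -2.10) and higher in DOCA + JK07 than in DOCA (log2 1.65) by edgeR at the same threshold. Mitochondrial transcripts made up 4.437% to 8.349% of the counts on chromosomes and the mitochondrial genome in DOCA + JK07, 2.609% and 0.496% in DOCA and 3.73% to 5.625% in control. The part of these markers and of the mitochondrial share in the results for SEL1L, HERPUD1 and ASNS was not tested.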

How the data were processed

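Nuclear RNA of sorted cardiomyocytes was sequenced with a TruSeq RNA kit, per the labels' protocols. SAMtools, StringTie and edgeR, on Sscrofa11.1, are the tools named per the submitters' processing notes; no source used here gave the aligner, the versions or the use of strand. Per the file headers, the authors deposited the coverage signal and TPM of each gene in each library. Estimated counts, whole numbers without gene names, were deposited in a separate table. They were joined to the gene identifiers in sorted order: 99.9983% of entries then had matching zeros, and 62.61% after a shift by 1 line. Coverage served only for this join and for the floor at a coverage of 1, under which lay 3.96% of the values above 0. TPM shares its denominator with the scaffolds that hold most reads.

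The estimated counts were tested with edgeR 4.0.16 in R 4.3.3 (quasi-likelihood F test, TMM, filterByExpr). All 10 libraries entered 1 model of 3 groups, with Benjamini-Hochberg adjustment over 17251 genes at a threshold of 0.05. SE was taken as the size of the log2 fold change over the square root of F. The script was tested on simulated data. Alternatives used DESeq2 1.42.0 and limma 3.58.1, other scalings and filters, and left out each library in turn. The 10 genes, the lists and the tests were chosen with earlier results of these data known. Other pathway genes are named by a rule: in each list and comparison, the 4 with the lowest p among those past the threshold. SYVN1, ATF6, EIF2AK3 and MARS1 were named outside it, after their values were seen. Of the list genes, CHAC1, GDF15, SLC6A9 and SDF2L1 were at 0 in all libraries. Single values of some marker genes are not reported here.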

Additional observations from a re-analysis of the deposited data

How the results depend on the processing

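Across 20 alternatives, 483 of the single-gene results kept their direction and their side of the threshold, 15 fell short of it and 9 newly passed it. Another 33, of 6 genes, changed sign; 0 of these were called before and 0 after the change. In DOCA against control, log2(TPM + 1) and log2(TPM + 0.1) gave -0.27 and -0.29 for ATF4, -0.26 and -0.40 for DNAJB9 and -0.46 and -0.51 for HSPA5. They gave, in DOCA + JK07 against DOCA, 0.55 and 0.58 for ATF4, 0.26 and 0.39 for ERN1, 0.49 and 0.65 for XBP1, 0.24 and 0.38 for DNAJB9, and 0.27 and 0.31 for HSPA5. Upper quartile scaling gave 0.14 for DDIT3 and 0.02 for XBP1 in DOCA against control. Quality weights gave 0.02 for XBP1 in DOCA + JK07 against DOCA and 0.05 for DNAJB9 in DOCA + JK07 against control, and library sizes of chromosomal genes without further scaling gave -0.05 for ATF4 in the same comparison. Without 1 library, DOCA against control ranged from -0.31 to 0.10 for DDIT3, from -0.48 to 0.55 for DNAJB9 and from -0.32 to 0.32 for HSPA5. DOCA + JK07 against DOCA ranged from -0.36 to 0.09 for ATF4, from -0.25 to 0.16 for XBP1 and from -0.74 to 0.28 for DNAJB9, and DOCA + JK07 against control from -0.04 to 0.24 for ATF4 and from -0.57 to 0.09 for DNAJB9. Of the 3 stress genes called in DOCA against control, limma voom with quality weights called 0, and of the 2 called in DOCA + JK07 against DOCA it called 0; limma on log2(TPM + 0.1) called 4 there. Over all genes, quality weights gave 161 calls (67 higher, 94 lower) instead of 4391 in DOCA against control, 5 instead of 2930 in DOCA + JK07 against DOCA and 8 instead of 0 in DOCA + JK07 against control. DESeq2 called 5124 genes in DOCA + JK07 against DOCA, limma on log2(TPM + 1) 5628 and limma on log2(TPM + 0.1) 6118; in DOCA + JK07 against control DESeq2 called 113. Leaving out 1 library gave 3307 to 5286 calls in DOCA against control and 2277 to 4455 in DOCA + JK07 against DOCA, the highest count of each without library 7, and 2 to 3 calls among the stress genes in both. Upper quartile scaling split the calls in DOCA against control into 1523 higher and 2868 lower, against 988 and 3403, and moved the fitted median of all genes to -0.39. The causes were not tested. No paired analysis was possible because the labels number the libraries 1 to 10 and no number is shared between groups. A 0 can stand for any level under a coverage of about 1. The DOCA libraries held the fewest counts on the placed chromosomes, at 6.80 and 3.24 M. In TPM a coverage of 1 was 0.261 in library 6, within the 0.184 to 0.486 of the other groups, and 0.612 in library 7. The cause of the many zeros in DOCA was not tested.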
